A study of Urocitellus parryii with 24 samples.

Results

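NNT and COQ10B are 2 nuclear genes of mitochondrial redox metabolism, and their RNA levels were read in the liver of 24 Arctic ground squirrels (AGS, Urocitellus parryii). They are 2 of the 1329 genes whose symbols could be paired with 1 of the 9600 cDNA probes on the membrane. Each symbol was given to the probe whose mean log2 values in torpor, arousal, and summer matched the state means listed for that gene, so both genes were chosen by the same state means that are described here. The NNT probe, gene8187, matched within 1.89e-06 and the next probe lay 0.109 away. The COQ10B probe, gene5628, matched within 9.67e-07 with the next probe at 0.217. Differences between states are therefore given for both genes as a description with standard errors and without a test. For these 2 genes tests were kept for what the state means do not hold, namely the stages within a state, the filter set, and the variation among animals of 1 state. The study's selection also weighed the spread within states, so these tests are not wholly independent of the choice.

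The study asked how liver gene expression differs between the torpid, aroused, and summer states of a hibernator. Labels and methods give 9 animals in torpor (T), 4 early and 5 late in a bout, and 8 in arousal episodes (A), 4 early and 4 late after rewarming. The 7 controls (P) are labelled as summer active and were collected after reproduction. All were wild-caught animals whose age and sex the labels do not give, each hybridized to 1 membrane. Stages were read from core body temperature by telemetry, and T and A animals had no food during hibernation. T animals were killed without anesthesia and A and P animals under isoflurane, so handling and the difference of T from both other states cannot be told apart. Membranes came from filter sets A1 and A2 as the scanner headers name them. All 9 T, 7 A, and 2 P arrays were on A1, and 5 P arrays and late arousal replicate 2 were on A2. Animal identifiers were uneven as well. The prefix 04 was carried by all T animals but early torpor replicate 4 and late torpor replicate 4. Among A animals only late arousal replicate 4 lacked it, and among P animals only replicate 7 had it. The labels do not say what the prefix stands for, and it largely coincides with the difference of P from T and A.

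NNT encodes nicotinamide nucleotide transhydrogenase, an enzyme of the mitochondrial inner membrane. It uses the proton gradient to pass hydride from NADH to NADP+ and so supplies matrix NADPH, which the glutathione and thioredoxin systems spend on removing peroxide. COQ10B encodes a lipid-binding protein related to yeast Coq10, which binds coenzyme Q (CoQ) and is needed for its normal work in respiration. CoQ is the lipid that carries electrons from complexes I and II and from several other dehydrogenases to complex III.

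Values are log2 ratios of the background-subtracted median signal of a spot to the median of that difference over its array, so that 0 is the median probe. The middle spot of an array read 54.1 to 132 units, where local background read 13.3 to 19.9. Among arrays of 1 group, Pearson's r over 9407 probes lay between 0.894 and 0.966, and there were 0 pairs of arrays with identical values. Of 12 hepatocyte markers 6 were paired (ALB, TTR, APOA2, APOB, SERPINA1, and FGB). In each state, the median of each marker over the arrays stood at percentile 95.8 of all probes or higher. APOB and FGB passed the limma threshold between T and P. For each of 7 other cell types only 1 marker was paired, and DES (stellate cells or smooth muscle), SOX9 (cholangiocytes), and ACTA1 (skeletal muscle) passed there as well. The linear ratio of DES was 0.0949 to 0.240 in T, 0.144 to 0.477 in A, and 0.150 to 0.599 in P. That of SOX9 was 0.944 to 1.52 in T, 0.9998 to 1.98 in A, and 1.45 to 2.21 in P, and that of ACTA1 was 0.214 to 0.357, 0.0947 to 0.331, and 0.0463 to 0.297 in the same order. The part of these markers' cells in the values of NNT and COQ10B was not tested. In whole liver, fewer cells of a type and less RNA per cell cannot be told apart.

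NNT was abundant on the membrane and highest in torpor. In early torpor its log2 ratio was 3.04, 3.45, 3.65, and 3.75 in the 4 animals, with a mean of 3.47 ± 0.32 (SD, n = 4). In late torpor it was 3.22, 3.26, 3.30, 3.42, and 3.46, with a mean of 3.33 ± 0.10 (SD, n = 5). All 9 torpid livers thus lay between 3.04 and 3.75, and late torpor varied least of the 5 groups. In early arousal the log2 ratio was 2.28, 2.72, 2.86, and 2.89, with a mean of 2.69 ± 0.28 (SD, n = 4). In late arousal it was 2.31, 2.67, 2.89, and 3.48, with a mean of 2.84 ± 0.49 (SD, n = 4). Of the 8 aroused livers, late arousal replicate 2 alone, at 3.48, reached into the torpor range, and it is also the A array on an A2 filter. In P the lowest log2 ratio was 1.75, the median 2.19, and the highest 3.62, with a mean of 2.44 ± 0.66 (SD, n = 7). The P animals spread most, and 1 of them, replicate 2 at 3.62, stood above 7 of the 9 torpid livers.

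Pooled over stages, NNT averaged 3.39 ± 0.22 (SD, n = 9) in T and 2.76 ± 0.38 (SD, n = 8) in A on the log2 ratio scale, against 2.44 in P. T exceeded P by 0.95 (standard error 0.22), a 1.94-fold difference, and exceeded A by 0.63 (standard error 0.21), which is 1.55-fold. The difference of A from P was 0.32 (standard error 0.22). Ranked among all probes of its array, NNT lay between percentiles 90.3 and 93.5 in T, 87.8 and 92.7 in A, and 80.6 and 93.0 in P. Its signal was never under 12.6 times the local background. Under quantile normalization the difference of T from A fell to 0.34, and that of A from P rose to 0.63, so the standing of A between the other states depends on the scaling.

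COQ10B was near the median probe in aroused and summer livers and lower in torpor. In early torpor its log2 ratio was -3.21, -1.30, -0.95, and -0.75, with a mean of -1.55 ± 1.13 (SD, n = 4). In late torpor it was -1.36, -1.05, -0.95, -0.86, and -0.59, with a mean of -0.96 ± 0.28 (SD, n = 5). The lowest of these values, early torpor replicate 4, stands apart from the other 8, and there the spot read 24.3 units over a local background of 17.9, only 1.36 times as much. In early arousal the log2 ratio was -0.16, 0.07, 0.12, and 0.54, with a mean of 0.14 ± 0.29 (SD, n = 4). In late arousal it was -0.52, -0.49, -0.13, and 0.14, with a mean of -0.25 ± 0.31 (SD, n = 4). All 8 aroused livers were above all 9 torpid livers, although the gap between the lowest A value of -0.52 and the highest T value of -0.59 was small. In P the log2 ratio ran from -0.83 over a median of 0.03 to 0.46, with a mean of -0.09 ± 0.51 (SD, n = 7). Among the P animals replicates 5 and 6, at -0.83 and -0.76, fell inside the torpor range.

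**Figure D1:**
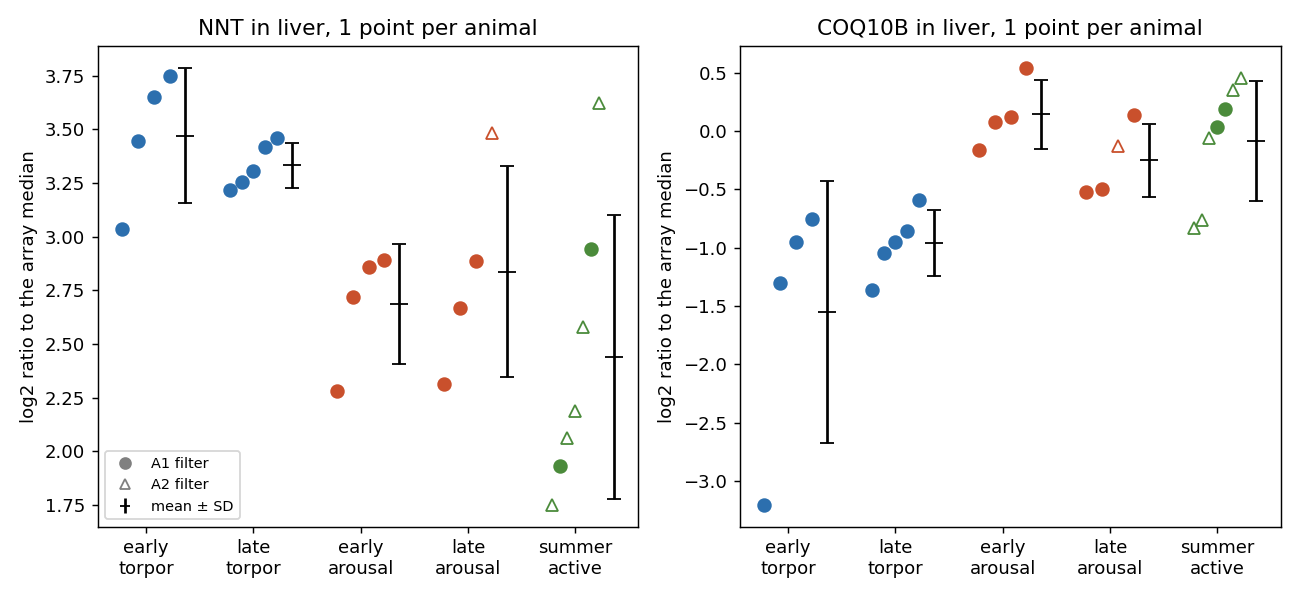
Log2 ratio to the array median (y axis) of NNT on the left and COQ10B on the right in the 5 groups (x axis), 1 point per animal, with mean ± SD beside the points and open triangles for A2 filters. NNT lies between 3.04 and 3.75 in torpor, and COQ10B lies at -0.59 or lower in torpor and at -0.52 or higher in arousal.

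Pooled over stages, COQ10B averaged -1.22 ± 0.78 (SD, n = 9) in T and -0.05 ± 0.35 (SD, n = 8) in A on the log2 ratio scale. T was below A by a difference of -1.17 (standard error 0.27), a 2.25-fold change, and below P by -1.14 (standard error 0.28), which is 2.20-fold. Without early torpor replicate 4 the T mean was -0.98 ± 0.26 (SD, n = 8), and the differences were -0.92 from A and -0.89 from P. A differed from P by 0.03 (standard error 0.29), less than the spread within either state. Its rank among all probes lay between percentiles 2.16 and 33.4 in T, 35.0 and 64.1 in A, and 28.8 and 61.7 in P. Groups of T and A with T lower and no overlap were seen for 4 of 9407 probes with a value on every array, or 0.0425%. COQ10B is 1 of these 4, and as the same contrast chose it, the count is a description.

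Ordered by mean log2 ratio, NNT ran from early torpor through late torpor, late arousal, and early arousal down to P. Each pair of neighbours in that order overlapped in range. The step of 0.49 between late torpor and late arousal was about as large as the larger SD of the pair, and the other steps were smaller than it. COQ10B ran from early arousal through P, late arousal, and late torpor down to early torpor. Here late arousal and late torpor were 0.71 apart and did not overlap, and the other neighbours differed by less than the larger SD.

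The filter sets were unevenly spread over the states, so the state differences were also taken within them. On A1 filters NNT averaged 2.66 ± 0.26 (SD, n = 7) in A, and the highest value there, 2.89, was under the lowest of T, 3.04. The 2 P arrays on A1, at 1.93 and 2.94, were also below all T arrays. On these 18 arrays NNT was 0.96 (standard error 0.25) higher in T than in P and 0.73 (standard error 0.16) higher than in A. When the fit held a term for filter set, called the block from here on, the differences were 1.18 (standard error 0.29) and 0.67 (standard error 0.21). The direction of NNT was therefore the same with and without the A2 arrays. Of 9471 probes on A1 filters, 0.243% had T above A without overlap and 3.06% had T above both P arrays.

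On the same A1 arrays COQ10B was at 0.03 and 0.19 in the 2 P animals, above every torpid liver, and T and A again did not overlap. The differences there were -1.34 (standard error 0.43) from P and -1.18 (standard error 0.28) from A. The block gave -1.28 (standard error 0.38) and -1.20 (standard error 0.27). Both contrasts of COQ10B were thus at least as large within filter sets as over all arrays. Of the A1 probes, 0.0634% had T below A and 3.67% had T below both P arrays without overlap. These shares are printed as background, since the same contrasts chose both genes.

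**Figure D2:**
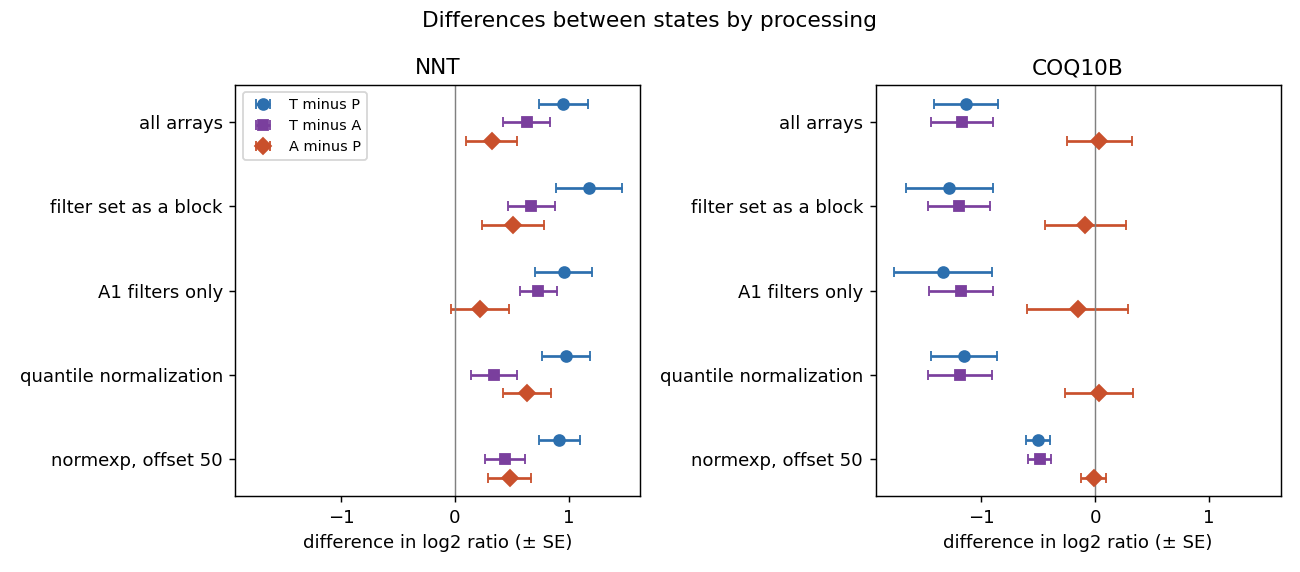
Differences in log2 ratio (x axis, ± SE) of NNT and COQ10B between T and P, T and A, and A and P over all arrays, with a filter set block, on A1 filters only, and under other background correction or normalization (y axis). NNT is higher and COQ10B lower in T under all 5, and normexp correction reduces the COQ10B differences to -0.50 and -0.49.

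The filter set itself was not a term in choosing the genes and was tested, although its part in the spread within states entered the choice. Within states NNT was 0.32 higher on A2 than on A1 (standard error 0.28, 95% interval -0.25 to 0.88, limma adjusted p = 0.455). Between the P arrays alone the means were 2.44 on both sets, with n = 2 on A1 and 5 on A2. The 0.32 moved with single arrays, to 0.0041 without late arousal replicate 2, to 0.15 and 0.18 without P replicates 2 and 3, and to 0.67 without P replicate 1. COQ10B was -0.20 on A2 against A1 (standard error 0.37, 95% interval -0.95 to 0.54, limma adjusted p = 0.745). Neither gene was among the 20.1% of probes that differed between filter sets at an adjusted p under 0.05, a share that was 9.80% without late arousal replicate 2. Of 4 spots next to each gene, those around NNT averaged 0.71 to 1.69 and those around COQ10B -0.89 to 1.17 over the arrays. The spot above NNT, gene8182, also ran down from 1.72 in T to 1.18 in A and 0.63 in P. Beside NNT, gene8192 and gene8186 ran down by less, and gene8188 was highest in A. All spots beside COQ10B were lowest in T by mean. Among them gene5629 was at -1.08 in T, -0.76 in A, and -0.78 in P, and gene5048 at 0.98, 1.16, and 1.43. The part of position on the membrane in these values was not tested.

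Stages within a state were compared next. From early to late torpor NNT changed by -0.14 (standard error 0.29, 95% interval -0.75 to 0.47, limma adjusted p = 0.998). An exact permutation test over the 9 animals gave p = 0.389, 2-sided, where 0.00794 is the smallest possible. The change was -0.28, -0.079, and -0.046 without early torpor replicates 1, 3, and 4. COQ10B was 0.59 higher late than early (standard error 0.36, 95% interval -0.15 to 1.33, limma adjusted p = 0.998, exact permutation p = 0.286). That difference rested on early torpor replicate 4, without which it was 0.04. Neither gene was found to differ between the ends of a torpor bout.

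From early to late arousal NNT changed by 0.15 (standard error 0.31, 95% interval -0.49 to 0.79, limma adjusted p = 0.937, exact permutation p = 0.686). Without late arousal replicate 2 it was -0.06, and on A1 filters likewise, so it had no stable sign. COQ10B was -0.39 in late against early arousal (standard error 0.38, 95% interval -1.17 to 0.38, limma adjusted p = 0.847). The exact permutation test over the 8 animals gave p = 0.2 with 0.0286 as the smallest possible. Whether the stage effect differed between arousal and torpor was tested as an interaction, which was 0.29 for NNT (standard error 0.43, 95% interval -0.59 to 1.17, limma adjusted p = 0.947). For COQ10B it was -0.99 (standard error 0.52, 95% interval -2.06 to 0.09, limma adjusted p = 0.837), and -0.44 without early torpor replicate 4. In each of these 3 comparisons limma called 0% of the probes tested, 0 of 9595 between torpor stages, 0 of 9597 between arousal stages, and 0 of 9594 for the interaction, while 458, 748, and 581 had an unadjusted p under 0.05.

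NNT and COQ10B moved in opposite directions between T and the other states, which the choice of the genes fixes. Among animals of 1 state the pair was examined anew. In T, Pearson's r was -0.661 (exact permutation p = 0.0481, adjusted p = 0.239 over 9 relations) and Spearman's rho -0.450 (p = 0.230, adjusted p = 0.375) across 9 animals. Without the 2 animals whose NNT lay farthest from the median r was -0.143, so the relation rests on those animals, early torpor replicate 4 among them with the highest NNT and the lowest COQ10B in torpor. In A r was 0.119 (exact permutation p = 0.786, adjusted p = 0.884) and rho 0.0952 across 8 animals, and 0.544 without the farthest 2. In P r was 0.609 (exact permutation p = 0.134, adjusted p = 0.314) and rho 0.607 across 7 animals, and 0.276 without the farthest 2. No relation of the pair passed after adjustment in any state.

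**Figure D3:**
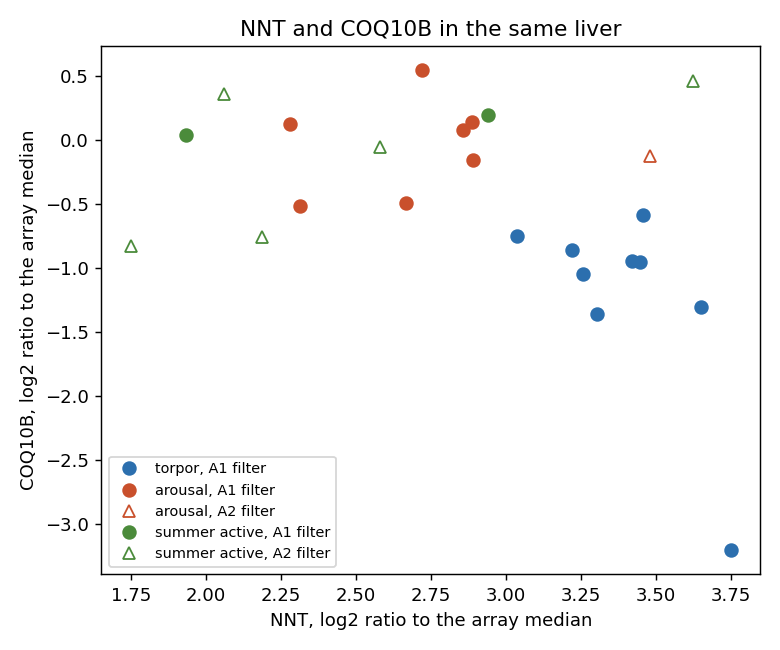
NNT (x axis) against COQ10B (y axis), both as log2 ratio to the array median, in the liver of each of 24 animals, with open triangles for A2 filters. Torpid animals lie at high NNT and low COQ10B, with early torpor replicate 4 at the far end, and the 7 summer animals spread along both axes.

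CIRBP, a cold-inducible RNA-binding protein, was set beside both genes because the study names NNT among its targets. Its log2 ratio averaged 3.003 ± 0.22 (SD, n = 9) in torpid livers. It was 1.62 ± 0.50 (SD, n = 8) in aroused and 0.60 ± 0.35 (SD, n = 7) in summer livers, and so it shared the order of states with NNT. Within states CIRBP and NNT had r of -0.464 in T, -0.727 in A, and -0.280 in P, with adjusted p of 0.373, 0.239, and 0.685 from exact permutation tests, and rho of -0.550, -0.595, and 0.0357. The value in A was -0.163 without late arousal replicate 2, and without the 2 animals farthest in CIRBP the 3 values were 0.0046, 0.112, and 0.646. No relation of NNT with CIRBP passed after adjustment, and its sign turned with the animals left out. CIRBP and COQ10B gave r of 0.558 in T, -0.0284 in A, and -0.405 in P, with rho of 0.433, 0.119, and -0.571 and adjusted p of 0.314, 0.950, and 0.561 from exact permutation tests. Without the farthest 2 animals these were 0.0722, -0.396, and -0.329.

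The genes most like each member were taken by Pearson's r over 24 arrays among 1311 other paired genes, all of which the study had selected for differing between states. For NNT these were C10orf58 (r = 0.746), C8orf40 (r = 0.727), TAX1BP1 (r = 0.719), an adaptor in selective autophagy, WBP11 (r = 0.685), a splicing factor, and MDH2 (r = 0.685), the mitochondrial malate dehydrogenase. After removal of the 5 group means r was 0.467, 0.419, 0.419, 0.411, and 0.551 in the same order, that of MDH2 being the highest of these 5. Without early torpor replicate 4, MDH2 had r of 0.609 after that removal. On the 18 arrays with A1 filters, group means kept, r was 0.737, 0.732, 0.833, 0.591, and 0.479 in the same order, so MDH2 was lowest there. For COQ10B they were KIAA0232 (r = 0.804), MSL2L1 (r = 0.733), PAFAH1B2 (r = 0.714), PRELID1 (r = 0.702), which carries phosphatidic acid inside mitochondria, and CCDC55 (r = 0.702), a splicing regulator. MSL2L1 belongs to a histone acetyltransferase complex and PAFAH1B2 is a subunit of an acetylhydrolase of platelet-activating factor. With the group means removed r was 0.769, 0.633, 0.464, 0.525, and 0.410, and without early torpor replicate 4 as well it was 0.418, 0.186, 0.248, 0.281, and 0.0079. All 5 values were lower without that array. PRELID1 was also very dim, with mean log2 ratios of -6.53 in T, -4.69 in A, and -3.56 in P.

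Genes that work beside NNT and COQ10B were counted over 5 lists of 88 names, of which 24 were paired with a probe. The counts here leave out NNT and COQ10B, which these contrasts chose, and cover the other 22. Since the study selected the paired genes on the same arrays, their p-values are not independent evidence. Between T and P limma called 946 of 9599 probes, or 9.86%, and 47.3% of the paired genes. Of all probes 528 were called higher and 418 lower in T. Of the 22 list genes 9 passed, 1 higher and 8 lower. Between A and P 8.47% of all probes and 38.5% of the paired genes were called. Most calls over all probes were lower in A as well, 562 against 251 higher. Of the list genes 11 passed, all lower in A, or 7 without late arousal replicate 1, late arousal replicate 4, or P replicate 4. Between T and A 0.469% and 2.33% were called, and of the list genes limma called 0, while 10 had an unadjusted p under 0.05 and the methods' test called 8. Without late arousal replicate 2, late arousal replicate 3, or P replicate 1, limma called 2, 1, and 1. The median difference over the lists was -0.32 from P in T, -0.60 from P in A, and 0.28 for T against A. Over all probes, most of them not selected, it was -0.016, -0.053, and 0.046. As the list genes were selected for differing between states, the gap between these medians is not a result about the lists. With the block, which called 0.969%, 2.71%, and 1.29% of probes in the 3 comparisons, 2, 5, and 3 of the 22 passed. The direction of calls between T and A depended on the scaling. Over all probes 107 were higher and 17 lower in T with the block. Under quantile normalization, which called 0.177%, 4 were higher and 13 lower. Values of T above A in the lists below hold for scaling to the array median.

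Of the list on CoQ synthesis and handling, 4 of 16 names were paired. COQ3 and COQ9, which act in CoQ synthesis, and CABC1, a kinase-like protein needed for it, differed between T and A by 0.31, 0.02, and 0.59, and the last had a standard error of 0.17 and a limma adjusted p of 0.0870. None of the 3 passed there. The values of COQ3 and COQ9 had standard errors of 0.16 and 0.20, so that of COQ9 had no clear sign. COQ10B, which this contrast chose, differed by -1.17. From P, T differed by -0.14 for COQ3, -0.61 for COQ9, and 0.06 for CABC1, and none of the 3 passed. With the block these were 0.20, -0.05, and -0.06.

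Among enzymes that reduce CoQ, 5 of 14 were paired. ETFDH, which feeds electrons from fatty acid oxidation into CoQ, was higher in T, at 2.96 ± 0.19 (SD, n = 9) against 2.00 ± 0.39 (SD, n = 7) in P, a difference of 0.96 (standard error 0.17, limma adjusted p = 9.98e-04). With the block it was 0.41 (adjusted p = 0.361), so the call was lost. PRODH, the proline dehydrogenase, was lower in T by a difference of -1.67 (standard error 0.31, adjusted p = 0.00140 from limma, 0.294 with the block) and lower in A by -1.38 (adjusted p = 0.00800, 0.297 with the block). On A1 filters, with 2 P arrays, these 2 differences were only -0.22 and 0.17 (limma adjusted p = 0.927 and 0.932), so the lower level was not seen there. SQRDL, which oxidizes sulfide, was lower in A than in P by -0.65 (adjusted p = 0.0370, 0.185 with the block), and T differed from P by -0.44 (adjusted p = 0.134). The 2 paired subunits of complex II, SDHA and SDHD, did not pass. Against A, T was higher by 0.60 in ETFDH and 0.51 in SDHA, with adjusted p of 0.0787 and 0.0906 that became 0.0384 and 0.0265 with the block. On A1 filters the limma adjusted p was 0.0670 and 0.0359.

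Beside NNT, mitochondrial NADPH supply was represented by IDH2 and SHMT2, 3 paired of 12. IDH2, the NADP-dependent isocitrate dehydrogenase of the matrix, differed by 0.69 between T and P (standard error 0.25, limma adjusted p = 0.0727) and by 0.62 between T and A (adjusted p = 0.212). Its values had the same sign as those of NNT but did not pass. SHMT2, a matrix enzyme of serine and folate metabolism, was lower in A than in P by -0.77 (standard error 0.18, limma adjusted p = 0.00872, 0.0439 with the block, 0.159 on A1 filters).

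The list on cytosolic NADPH supply had 4 of 9 names paired, and all 4 were lower in T than in P. Over all probes 418 of 9599 were called lower in T, and 47.3% of the paired genes, selected for differing, were called in either direction. PGD, an NADPH-forming enzyme of the pentose phosphate pathway, averaged -1.24 ± 0.33 (SD, n = 9) in T and 0.48 ± 0.54 (SD, n = 7) in P, with differences from P of -1.72 in T and -1.47 in A. TKT and TALDO1, transketolase and transaldolase of the same pathway, differed from P by -1.16 and -1.35 in T and by -1.38 and -1.45 in A. In T the adjusted p from limma was 3.32e-06 for PGD, 0.0204 for TKT, and 0.00235 for TALDO1, and with the block it was 0.00541, 0.00667, and 0.115. MTHFD1, an enzyme of folate metabolism, differed by -0.57 in T (adjusted p = 0.0209, 0.421 with the block). Between T and A none of the 4 passed.

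Of the list on peroxide and thiol defence, 8 of 37 names were paired. CAT, catalase, was lower by -1.20 in T and -1.97 in A relative to P, and the A value kept its call with the block (adjusted p = 0.00161) while the T value did not (adjusted p = 0.315). On A1 filters, with 2 P arrays, the A value was -1.19 and was not called (limma adjusted p = 0.114). T was above A in CAT by 0.77 (adjusted p = 0.0958), or 0.84 with the block (adjusted p = 0.0494) and 0.75 on A1 filters (limma adjusted p = 0.0769). PRDX6, a peroxiredoxin, differed from P by -0.82 in T and -0.83 in A, and HMOX1, heme oxygenase, by -0.83 and -0.82. Those of HMOX1 shrank to -0.03 and -0.16 with the block, and none of these 4 calls was kept there. PRDX3, the mitochondrial peroxiredoxin that draws on NADPH through thioredoxin, was lower in A by -0.67 (standard error 0.19, limma adjusted p = 0.0338, 0.478 with the block). It differed between T and P by only -0.10. MSRB2, which repairs oxidized methionine, was lower in A by -0.56 (adjusted p = 0.0489, 0.0915 with the block). MSRA, NQO2, and UCP2 did not pass in any of the 3 comparisons.

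**Figure D4:**
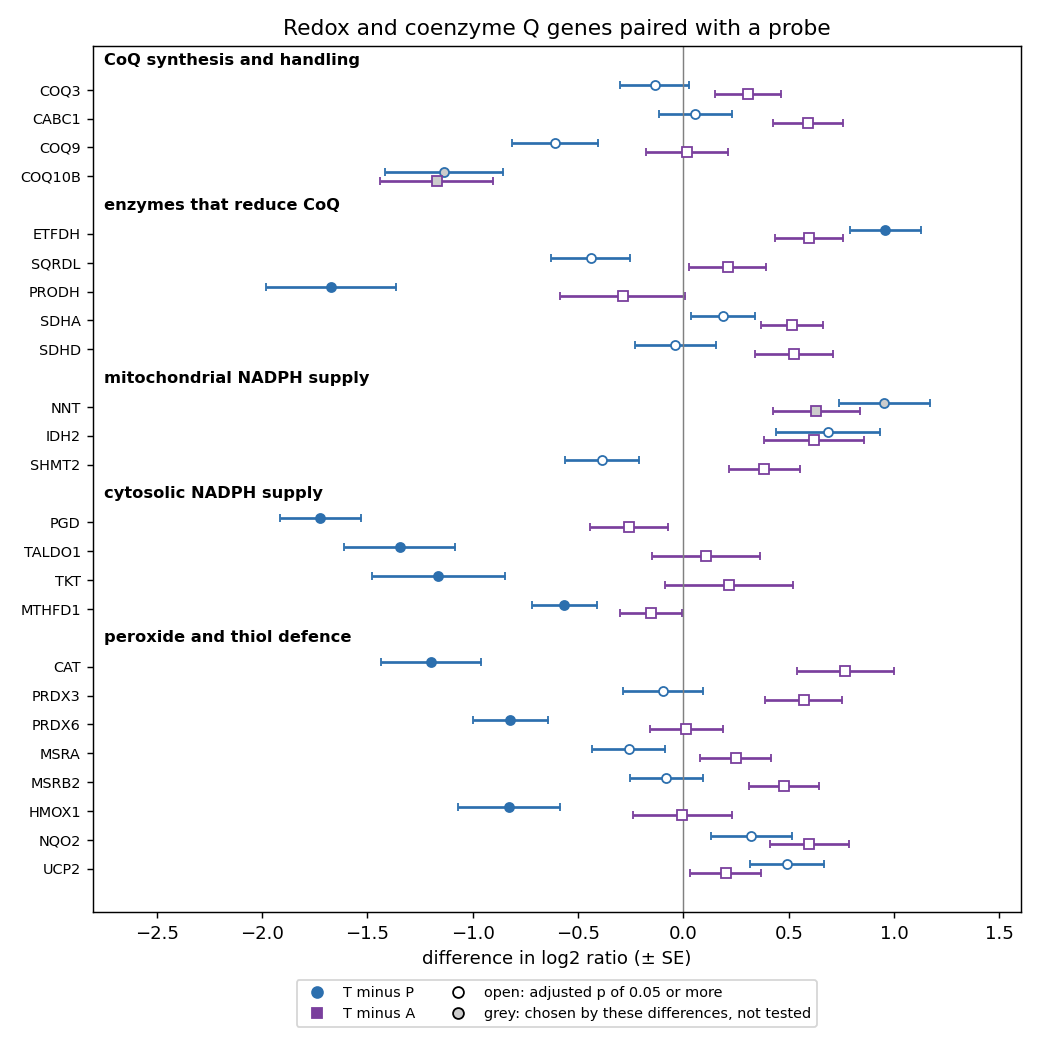
Difference in log2 ratio (x axis, ± SE) of T from P (blue circles) and T from A (purple squares) for the 24 list genes that were paired with a probe (y axis, grouped by list), filled where the limma adjusted p was under 0.05 and grey for NNT and COQ10B. Against P, PGD, TALDO1, TKT, MTHFD1, PRODH, CAT, PRDX6, and HMOX1 are filled and left of 0, and ETFDH is filled and right of 0. Besides the grey points no T minus A point is filled.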

How the data were processed

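Liver RNA was amplified, labelled with 33P, and hybridized to nylon membranes with 9600 cDNA probes. Per the file headers, the authors read spot and local background intensity with ImaGene 6.1.0 and deposited them without subtraction. The deposited ratio of the series table is the background-subtracted median signal over its array median, with 0.002 as floor. It was recomputed from the intensity values (largest distance 4.98e-07 at spots above the floor) and taken as log2, and the 668 of 230400 spots at or below 0 were missing.

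Fits used limma 3.58.1 in R 4.3.3 (lmFit, eBayes) with Benjamini-Hochberg adjustment over all probes and a threshold of 0.05, over 3 states, over 5 groups, or with filter set as a covariate. Exact permutation tests and plots used Python 3.11.15, scipy 1.17.1, numpy 2.4.6, pandas 2.3.3, and matplotlib 3.10.9. The methods' test was ANOVA across the 3 states, Storey's q, and Tukey's HSD. The fits were tested on simulated data, with a log2 change of 1 given to 200 of 9407 probes. Of these, 79 were recovered between torpor stages, 73 between arousal stages, 94 between filter sets, and 168 between T and A. False calls were 0, 5, 9, and 10 in the same order. The stage and filter set tests could thus miss many changes of that size. The number of arrays limits the precision. With 1 membrane per animal, p-values cover the spread between animals together with that between membranes, which cannot be told apart.

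The NNT and COQ10B genes and the lists were chosen with earlier results of these data known. Named genes are this pair, CIRBP, every list gene paired with a probe (tolerance 1e-04), and the 5 paired genes most like each of the pair. Symbols come from the study's list of genes that differed between states; other probes stay unnamed here, and some genes are not reported here. Of the per-sample columns, 0 were left out.

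Alternatives were normexp (offset 50), quantile normalization, mean pixel values, the deposited ratio, a floor, leaving out dim probes (signal not over 2 times background on at least 7 arrays), a block for filter set or for identifier prefix (04 or other), A1 or A2 filters only, stages weighted equally, the methods' test, and leaving out each array. Leaving out early torpor replicate 4 and late arousal replicate 2 together was added after seeing the data.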

Additional observations from a re-analysis of the deposited data

Results flagged for a closer look

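COQ10B in early torpor replicate 4 was far from the other T animals. Its log2 ratio of -3.21 was separated from the next lowest, -1.36, by a gap that made up 0.704 of the whole range of the 9 T arrays, above Dixon's 95% critical value of 0.493. Chance flags about 1 in 20 groups, and both ends of 14 groupings of the 2 genes were examined. On the same array the NNT log2 ratio was 3.75, the highest of the T arrays, the array background of 19.9 was the highest of all 24, and 8319 probes were over 2 times their background, the fewest of the T arrays. The part of these values in the COQ10B reading was not tested.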

How the results depend on the processing

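The differences of NNT and COQ10B between states kept their sign under every alternative run for T against P and T against A, and so did A against P for NNT, while A against P for COQ10B ran from -0.49 with the identifier prefix as a block to 0.13 without single arrays. On A2 filters, with 1 A array, A exceeded P in NNT by 1.04. Normexp correction, whose offset of 50 is close to the COQ10B signals, gave COQ10B differences of -0.50 from P and -0.49 from A in T. The NNT change from early to late arousal turned to -0.050 under quantile normalization and to -0.065 on A1 filters and without both early torpor replicate 4 and late arousal replicate 2, with a range of -0.065 to 0.325 over arrays left out in turn. Without both arrays the NNT interaction was -0.019. For CIRBP with NNT, r turned to 0.029 in T under quantile normalization, and to 0.0046, 0.112, and 0.646 in T, A, and P without the 2 farthest animals. No stage, interaction, or filter set test of either gene passed under any alternative.

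Of the 22 list genes other than NNT and COQ10B, those called between T and P went from 9 to 2 under the filter set block and to 3 on A1 filters, and ran from 7 to 11 without single arrays. Between A and P they went from 11 to 7 (quantile), 5 (filter set block), 2 (A1 filters), and 4 (identifier prefix block), and ran from 7, without late arousal replicate 1, late arousal replicate 4, or P replicate 4, to 15. Between T and A they went from 0, with 10 at an unadjusted p under 0.05 in limma, to 3 (mean pixel values and filter set block), 2 (A1 filters), and 8 (methods' test), and ran from 0 to 2 without single arrays, with 2 without late arousal replicate 2 and 1 without late arousal replicate 3 or P replicate 1. The cause was not tested. No paired analysis was possible because the labels number animals by identifier and no identifier is shared between groups. The dim COQ10B spots in torpor, down to 1.36 times background, limit how exactly its low values are known.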
